A study of Mus musculus with 6 samples.

Results

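Thy1, Ly6c1, Dpt and Lum encode surface and matrix proteins of fibroblast-like cells. Each was represented by 1 probe, so the 4 genes are 4 of the 8734 probes in the table and 4 of 5755 gene symbols. They were taken by the symbols of the platform annotation, and they had been picked because of their ratios in this same comparison. Their ratios between transgenic and nontransgenic cells are therefore given as a description with no test. All 4 probes had a value on all 6 arrays, so none was lost to the filter on missing values.

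The study compared airway smooth muscle cells grown from tracheal explants of 2AR-OE mice, a transgenic overexpression line, with such cells from nontransgenic (NTG) mice. Each primary culture began from the pieces of a single trachea in medium with 20% serum and was used for RNA between passages 8 and 10, and the labels put the share of smooth muscle cells above 90% by staining for smooth muscle actin. The labels name no promoter, strain, age, sex or drug treatment. On each array the 2 RNAs competed for the same spots: Cy5 marked the transgenic RNA on 1A, 1B, 2A and 2B, and Cy3 marked it on the swapped pair, 1C and 2C. The leading number in these names is unexplained in the labels; its arrays are referred to as set 1 and set 2. Since the labels tie no array to a culture or animal of its own, each p-value reflects spread among arrays that could be technical repeats.

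Values are log2 ratios, where 1 means a 2-fold and 2 a 4-fold difference, and 0 means equal signal. They were read as transgenic over nontransgenic on every array, which the labels do not state. This reading is likely, since the first channel of the 4 unswapped arrays holds the transgenic RNA, although their titles name the NTG RNA first. With the opposite reading every sign below turns. The columns of 1C and 2C were read as already turned to that direction; without such a turn the fitted ratios would be -0.10 for Thy1, 0.23 for Ly6c1, -0.46 for Dpt and -0.11 for Lum, and the values below would hold a dye bias. A ratio cannot tell more cells of a type from more RNA per cell. Array 1C was the most scattered, with 15.98% of its probes beyond 2-fold against 2.97% to 7.57% on the other 5 arrays.

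Thy1 (CD90) is a small glycoprotein of the immunoglobulin superfamily that is held in the outer leaflet of the membrane by a glycosylphosphatidylinositol (GPI) anchor. It marks subsets of fibroblasts as well as T cells and neurons, and it binds integrins on neighbouring cells. Ly6c1 belongs to the Ly6 family of small GPI-anchored proteins, whose genes lie in a cluster, and it is best known from monocytes, lymphocytes and endothelium. Lum encodes lumican, a small leucine-rich proteoglycan that carries keratan sulfate and limits the width of collagen fibrils. Dpt encodes dermatopontin, a tyrosine-rich matrix protein that binds the proteoglycan decorin and promotes collagen fibril assembly. Dpt is thus a partner of proteoglycans and not a proteoglycan itself.

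Promoter sequences were at hand for Ly6c1 and Dpt, from RefSeq with build GRCm38.p6, so 2 of the 4 genes matched that table. Only these are shown because Thy1 and Lum had 0 entries there. The Dpt stretch is the 250 bases before the transcript start, at chr1:164796413-164796662 on the + strand. The Ly6c1 stretch lies 84 to 250 bases before one of its 2 listed starts, at chr15:75048921-75049087 on the - strand, and was ended there because longer gene models begin at that point. Capitals mark matches to the motifs searched.
Dpt: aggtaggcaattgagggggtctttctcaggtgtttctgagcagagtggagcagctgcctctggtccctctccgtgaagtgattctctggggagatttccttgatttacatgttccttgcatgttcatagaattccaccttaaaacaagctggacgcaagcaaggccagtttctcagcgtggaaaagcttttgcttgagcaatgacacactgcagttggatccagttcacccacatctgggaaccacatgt
Ly6c1: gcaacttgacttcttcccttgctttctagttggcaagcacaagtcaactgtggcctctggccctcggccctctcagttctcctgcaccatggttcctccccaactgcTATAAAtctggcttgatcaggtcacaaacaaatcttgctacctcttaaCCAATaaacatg
The motifs searched on both strands were TGACG, the core of the cyclic AMP response element, the TATA box letters TATAAA, the Sp1 site written as GGGCGG, the CCAAT box, the AP-1 site given by TGANTCA, and the CArG box of serum response factor, given by name.  The Ly6c1 stretch held 1 TATA box match, which 8.0% of 32817 promoter windows of the same 167 bases also held. It also held 1 CCAAT box match, found in 22.5% of windows, and the matches do not overlap. The Dpt stretch held 0 matches to the 6 motifs, which in windows of 250 bases have shares of 33.8% for the CCAAT box, 32.7% for the Sp1 site, 17.7% for the cyclic AMP element core, 12.4% for the TATA box, 6.8% for the AP-1 site and 1.5% for the CArG box. In windows of 167 bases the 4 motifs not found in the Ly6c1 stretch have shares of 19.0% for the Sp1 site, 9.6% for the cyclic AMP element core, 4.6% for the AP-1 site and 0.9% for the CArG box. A match is a description of letters only.

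Thy1 had the highest ratio of the 4 genes. Its log2 ratios were 2.66 on 1A, 3.20 on 1B, 3.44 on 1C, 2.42 on 2A, 2.23 on 2B and 2.21 on 2C. All 6 values lay above 2, which is a range from 4.63-fold to 10.8-fold, and the 3 arrays of set 1 lay above the 3 of set 2. The fitted ratio was 2.73 ± 0.21 (SE, n = 6), or 6.62-fold. Thy1 held the highest ratio of all 6803 rows (a gene, or a probe with no single symbol) on 1B, with rank 2 on 2A and rank 3 on 2B, and ranks 11, 20 and 46 on 2C, 1A and 1C.

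Ly6c1 followed, with log2 ratios of 2.99 on 1A, 2.70 on 1B, 2.18 on 1C, 1.83 on 2A, 1.69 on 2B and 1.52 on 2C. Again every array was positive and set 1 lay wholly above set 2. The fitted ratio was 2.07 ± 0.22 (SE, n = 6), or 4.21-fold. Its rank on single arrays ran from 4 on 1B to 208 on 1C. Thy1 and Ly6c1 are 2 of the 15 rows (0.222% of 6756 rows with 6 values) whose ratio exceeded 1 on all 6 arrays, a count that uses the contrast they were picked on.

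Dpt was raised on 5 arrays and lowered on 1. Its log2 ratios were 2.09 on 1A, 2.27 on 1C, 1.94 on 2A, 1.83 on 2B and 1.99 on 2C, but -1.01 on 1B. The 5 high arrays lay between 1.83 and 2.27, while on 1B Dpt was lower in transgenic cells, at 0.495 of the NTG signal. The rank went from 7 to 183 on the 5 arrays to 6489 of 6803 on 1B. The fitted ratio was 1.67 ± 0.46 (SE, n = 6), and 2.04 ± 0.09 without 1B (SE, n = 5). Being positive on 5 arrays and negative on 1 was found for 11.8% of rows with 6 values, and a gap of 2.5 or more between 1 array and the next for 2.28%. Among the 4 arrays with transgenic RNA in Cy5, Dpt on 1B and Lum on 2A each stood apart from the others by Dixon's ratio of gap to range at its 95% critical value, as 1 array did for 6.63% of rows with 6 values. With a single probe and no spot intensities, no second reading of Dpt on 1B was to be had.

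Lum had the smallest ratios, at 0.31 on 1A, 0.43 on 1B, 0.97 on 1C, 1.33 on 2A, 0.29 on 2B and 0.66 on 2C. All 6 arrays were positive, as for 11.2% of rows with 6 values, and only 2A passed 2-fold. The sets overlapped. The fitted ratio was 0.70 ± 0.17 (SE, n = 6), or 1.63-fold, and 0.58 ± 0.09 without 2A (SE, n = 5). Lum ranked 44 on 2A and between 297 and 1349 on the other 5 arrays.

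**Figure D1:**
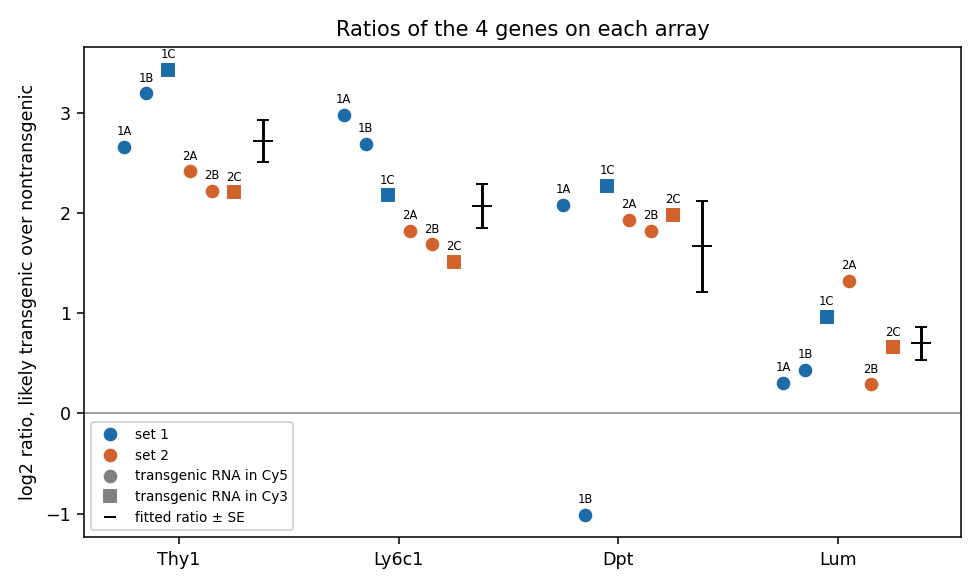
Log2 ratios of Thy1, Ly6c1, Dpt and Lum (y axis) on each of the 6 arrays, coloured by set, with squares for the swapped arrays and bars for the fitted ratio ± SE. Thy1 and Ly6c1 are higher in set 1 than in set 2, and Dpt on 1B is the single negative value at -1.01.

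**Figure D2:**
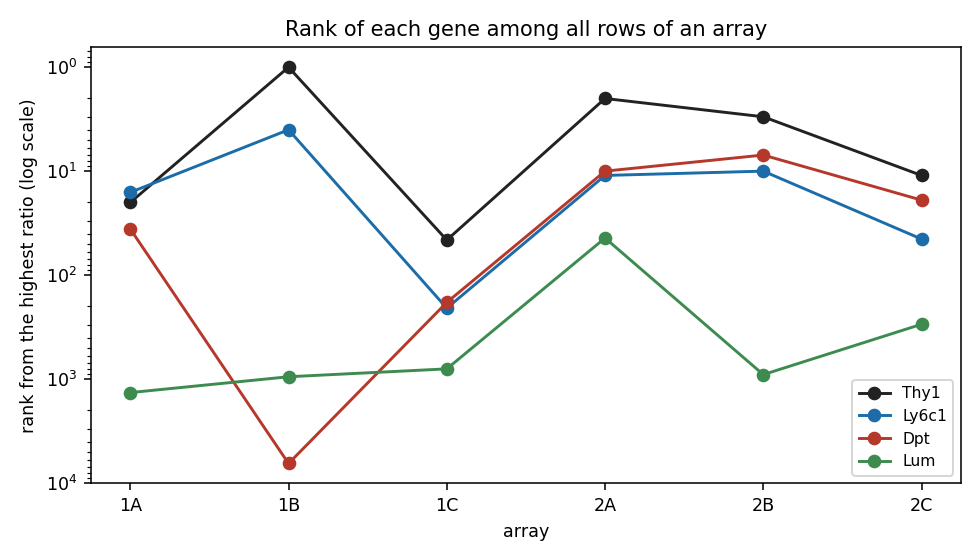
Rank of each gene from the highest ratio (y axis, log scale, highest at the top) among all rows with a value on each array (x axis); lines only join values of 1 gene. Thy1 stays between ranks 1 and 46, while Dpt drops to 6489 on 1B.

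The order of the fitted ratios was Thy1, Ly6c1, Dpt, Lum, but neighbours in this order were not all apart. Thy1 exceeded Ly6c1 on 5 of 6 arrays, by 0.54 ± 0.51 on average (SD, n = 6), and was lower than it by 0.32 on 1A. Ly6c1 and Dpt changed places: Dpt was higher on the 4 arrays 1C, 2A, 2B and 2C by 0.09 to 0.47, and Ly6c1 was higher on 1A and 1B by 0.90 and 3.71. Lum was lowest on every array but 1B, where Dpt was lower. Thy1 exceeded Lum on 6 of 6 arrays, by 2.03 ± 0.63 (SD, n = 6).

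The genes agreed in part on which arrays were high. Thy1 and Ly6c1 were both above their own medians on 1A, 1B and 1C and below them on the arrays of set 2. Dpt was above its median on 1A, 1C and 2C, and Lum on 1C, 2A and 2C. Array 1C is the 1 array on which all 4 genes were above their medians, and it is also the array with the widest scatter. Array 2B is the 1 array on which all 4 genes were below their medians.

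The genes were not picked on the difference between the sets. That difference is still not independent of the pick, as it uses the same ratios, on arrays whose spread was wider in set 1. Thy1 averaged 3.10 ± 0.40 in set 1 and 2.29 ± 0.12 in set 2 (SD, n = 3 each). Ly6c1 averaged 2.62 ± 0.41 in set 1 and 1.68 ± 0.16 in set 2. The difference of set 2 minus set 1 was -0.82 ± 0.22 for Thy1 and -0.94 ± 0.15 for Ly6c1 (limma, adjusted p = 0.122 and 0.0724). Neither passed, and over all rows 0 of 6807 passed by limma, with 1616 (23.7%) at an unadjusted p under 0.05; there the unadjusted p was 0.0158 for Thy1 and 0.00181 for Ly6c1. Sets without overlap, set 1 being higher, were found for 13.8% of rows with 6 values, and in either direction for 25.2%, so such separation was common on these arrays. Dpt (0.80 ± 0.91, adjusted p = 0.625) and Lum (0.19 ± 0.33, adjusted p = 0.757) did not pass either, and the Dpt difference turned to -0.24 without 1B.

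The spread of whole arrays moves with this difference. The median absolute deviation of all probes was 0.236, 0.277 and 0.369 on 1A, 1B and 1C against 0.215, 0.198 and 0.189 on 2A, 2B and 2C. When every array was scaled to a common spread, an alternative chosen after seeing the data, Thy1 stood at 2.74, 2.76, 2.26, 2.70, 2.67 and 2.84 on 1A, 1B, 1C, 2A, 2B and 2C. Its set difference became 0.15 (adjusted p = 0.609). On that scale the sets of Thy1 overlapped and 1C, its highest array before, became its lowest. The set difference of Ly6c1 shrank to -0.27 ± 0.33 (adjusted p = 0.643), its sets overlapped as well, and 1C became its lowest array at 1.43. Over all rows, scaling left separation of the sets as common as before. Sets without overlap were found for 24.9% of rows with 6 values, against 25.2% unscaled. An unadjusted limma p under 0.05 was found for 25.1%, against 23.7%. Scaling left the fitted ratios near their first values, at 2.63 for Thy1, 2.03 for Ly6c1, 1.71 for Dpt and 0.69 for Lum.

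**Figure D3:**
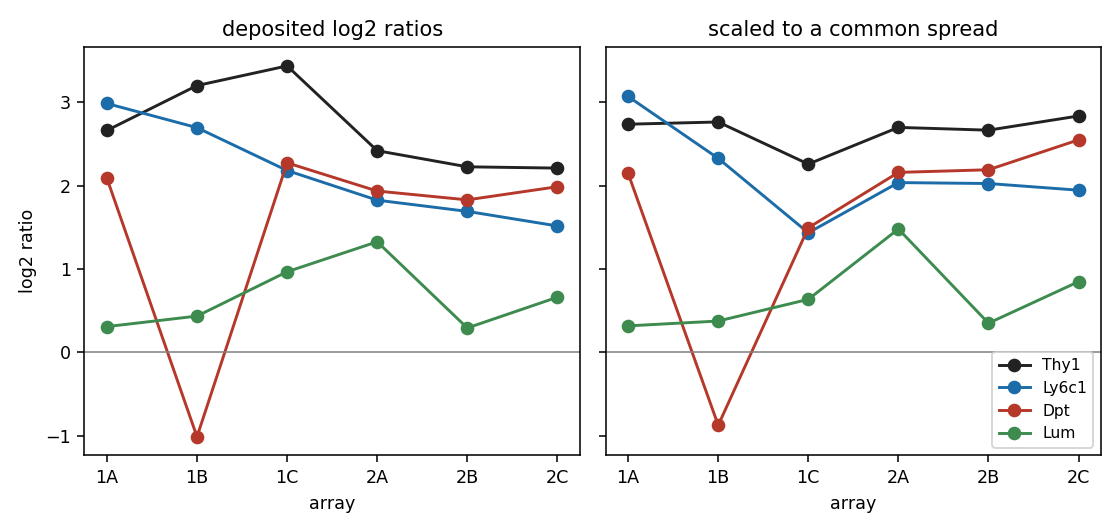
Log2 ratios of the 4 genes (y axis) on each array (x axis), as deposited on the left and after scaling all arrays to a common spread on the right; lines only join values of 1 gene. Thy1 runs from 2.21 to 3.44 as deposited and from 2.26 to 2.84 after scaling, while Dpt on 1B stays apart at -0.88.

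Exchange of the dyes gave no difference past the threshold for the 4 genes. Thy1 averaged 2.63 with transgenic RNA in Cy5 (n = 4) and 2.82 with it in Cy3 (n = 2). Ly6c1 averaged 2.30 and 1.85, Dpt 1.21 and 2.13, and Lum 0.59 and 0.81 in the same order. The limma dye terms had adjusted p of 0.808, 0.585, 0.596 and 0.728 for Thy1, Ly6c1, Dpt and Lum, where 1 of 6807 rows (0.0147%) passed; before adjustment 18.2% lay under 0.05, none of the 4 genes among them. The lower Dpt mean in Cy5 contains the value on 1B.

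**Figure D4:**
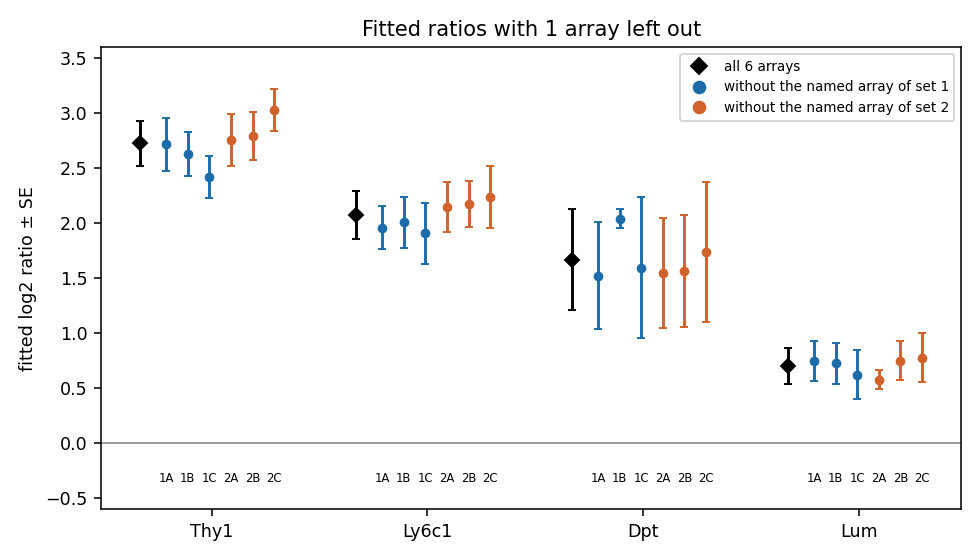
Fitted log2 ratio ± SE (y axis) of the 4 genes from all 6 arrays and with each array left out in turn. Dpt moves from 1.67 to 2.04 and its SE shrinks from 0.46 to 0.09 when 1B is left out.

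Genes related by anchor, family or function were tested in the same fit, in which 484 of 6807 rows passed (7.11%), 4.03% higher and 3.09% lower. The lists below leave out the 4 genes, and the median over all rows was 0.002. Of 14 proteins listed as other GPI-anchored surface proteins, 2 rose and 1 fell, with a median of 0.011. GPI-anchored proteins placed in other lists, such as Gpc4, which fell, are not counted here. Prnp, the prion protein, rose by 1.17 ± 0.18 (limma, adjusted p = 0.0183), with 1.78, 1.68 and 1.39 in set 1 and 0.91, 0.97 and 0.64 in set 2. Cd109, a surface protein that binds transforming growth factor beta, rose by 0.91 ± 0.08 (adjusted p = 0.00429), with 0.78 to 1.16 on single arrays. Efna5, an ephrin ligand, fell by 0.33 ± 0.06 (adjusted p = 0.0354). Gfra1, a receptor subunit for a neurotrophic factor, was at -0.77 ± 0.17 and did not pass (adjusted p = 0.056). Like Thy1 and Ly6c1, Prnp was higher on every array of set 1 than on any of set 2, as were 13.8% of rows with 6 values. Without 1C, 1 of these 3 calls was left, that of Cd109; Prnp also lost its call without 1B, and Efna5 without each array but 2C and with the sets as random blocks (adjusted p = 0.107).

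Enzymes that build and attach the GPI anchor gave ratios near 0. None of 7 measured passed limma, and their ratios ran from -0.22 for Pigq to 0.07 for Dpm3 with a median of -0.045. Pigt, a subunit of the complex that attaches the anchor, was at -0.20 ± 0.11.

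Of the 27 genes listed for the Ly6 and uPAR domain family, 8 were measured, Ly6c1 among them. Of the 7 others 0 passed limma, and the median was -0.062. Lypd1 had the highest ratio at 0.28 ± 0.07 (adjusted p = 0.0685), and Psca the lowest at -0.38 ± 0.27, with -1.07 and -1.77 on 1A and 1B and -0.05 to -0.01 on the other 4 arrays. Ly6d was at 0.11 ± 0.10 and Ly6h at -0.06 ± 0.17.

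Position in the Ly6 cluster was examined with the order of genes in the GRCm38.p6 gene table. Between Psca and Gpihbp1 it lists 45 genes, 6 of them measured. Besides Ly6c1, 1 of these was positive on all 6 arrays: 9030619P08Rik, a transcribed pseudogene between Ly6f and Ly6l, which lies 13 genes from Ly6c1 and is the nearest measured gene on that side. It was singled out after its values were seen. Its log2 ratios were 3.83 on 1A, 3.17 on 1B, 2.07 on 1C, 2.28 on 2A, 0.97 on 2B and 1.48 on 2C, so that 2B was lowest. The fitted ratio was 2.17 ± 0.39 (limma, adjusted p = 0.0293). The call was lost without 1A, 1B, 2A or 1C, at adjusted p from 0.0533 to 0.131, with the sets as random blocks, at 0.07, and with array weights, at 0.182. Some Ly6 genes are close copies of one another. Since probe sequences were not used here, it is not known whether these probes tell apart Ly6c1, Ly6c2, Ly6a and the pseudogene. On the other side of Ly6c1, the nearest measured gene was Cyp11b1, a steroid hydroxylase, at 0.39 ± 0.16 (adjusted p = 0.189).

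The measured neighbours of the other 3 genes did not pass. Nectin1 and Rnf26 flank Thy1 among measured genes, at -0.24 ± 0.14 and -0.02 ± 0.13. Atp1b1 and Xcl1 flank Dpt, at 0.04 ± 0.11 and -0.13 ± 0.10. Ube2n and Atp2b1 are the nearest measured genes beside Lum, at -0.13 ± 0.10 and -0.60 ± 0.23 (limma, adjusted p = 0.407 and 0.165). The gene next to Lum on the lower side is Dcn, decorin, and it was not analysed here.

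Besides Lum, only 2 small leucine-rich proteoglycans were measured, and their ratios did not pass. Both were positive on all 6 arrays, as were 11.2% of rows with 6 values. Fmod, fibromodulin, which shares collagen binding sites with lumican, was at 0.58 ± 0.23 (limma, adjusted p = 0.172) and positive on 6 of 6 arrays, but with 1.93 on 1C against 0.09 to 0.19 on the other 5. Bgn, biglycan, was at 0.16 ± 0.07 (adjusted p = 0.182), with 0.03 to 0.24 on single arrays. Of 9 other proteoglycans and hyaluronan-binding proteins, 1 rose and 2 fell, with a median of -0.088. Tgfbr3, the cell surface proteoglycan betaglycan, rose by 1.34 ± 0.06 (adjusted p = 0.00136), with 1.15 to 1.52 on single arrays. Agrn, the heparan sulfate proteoglycan agrin, fell by 0.79 ± 0.09 (adjusted p = 0.00877), and Gpc4, a GPI-anchored glypican, fell by 0.67 ± 0.09 (adjusted p = 0.0119). Cd44, the hyaluronan receptor, was at -0.41 ± 0.14 and Acan, aggrecan, at -0.29 ± 0.10, neither past the threshold. The Gpc4 call was lost without 1C.

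Of 14 measured enzymes that make and sulfate the sugar chains, 2 rose, 1 fell and 11 did not pass, with a median of 0.045. Papss2, which makes the sulfate donor, rose by 0.47 ± 0.07 (limma, adjusted p = 0.0182), Hs6st2, a heparan sulfotransferase, rose by 0.47 ± 0.07 (adjusted p = 0.0202), and Chst11, a chondroitin sulfotransferase, fell by 0.42 ± 0.08 (adjusted p = 0.03). None of these 3 passed without 1C, 1B, 2A or 2B, and Chst11 also lost its call without 1A; Chst11 and Hs6st2 did not pass with the sets as random blocks (adjusted p = 0.0698 and 0.0692). Papss2 had 2 probes that disagreed in size, at 0.72 ± 0.07 and 0.22 ± 0.13. Ugdh, which makes the sugar nucleotide UDP-glucuronate, had the largest ratio of the list at -1.77 ± 0.96 (adjusted p = 0.278), with the floor value of -6.64 on 1C, -2.33 on 1B and -0.25 to 0.80 on the other 4 arrays. Chst14 and Chst12, sulfotransferases of dermatan and chondroitin sulfate, were at 0.72 ± 0.20 and 0.62 ± 0.18, positive on 6 of 6 arrays but highest on 1C, and did not pass.

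Of 12 measured binding partners of Thy1 and proteins of adhesion signalling, 0 rose, 2 fell and 10 did not pass, and the median was -0.140. Itgb3, the beta subunit of an integrin that binds Thy1, fell by 1.00 ± 0.08 (limma, adjusted p = 0.00411), with -1.36 to -0.56 on single arrays. Pxn, the focal adhesion adaptor paxillin, fell by 0.77 ± 0.09 (adjusted p = 0.0103), a call lost without 1C. Cav1, caveolin 1, at -0.54 ± 0.12, and Itga5, the fibronectin receptor subunit, at -0.45 ± 0.11, did not pass (adjusted p = 0.056 and 0.0722). Fyn, a kinase that Thy1 acts through, was at 0.08 ± 0.12.

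**Figure D5:**
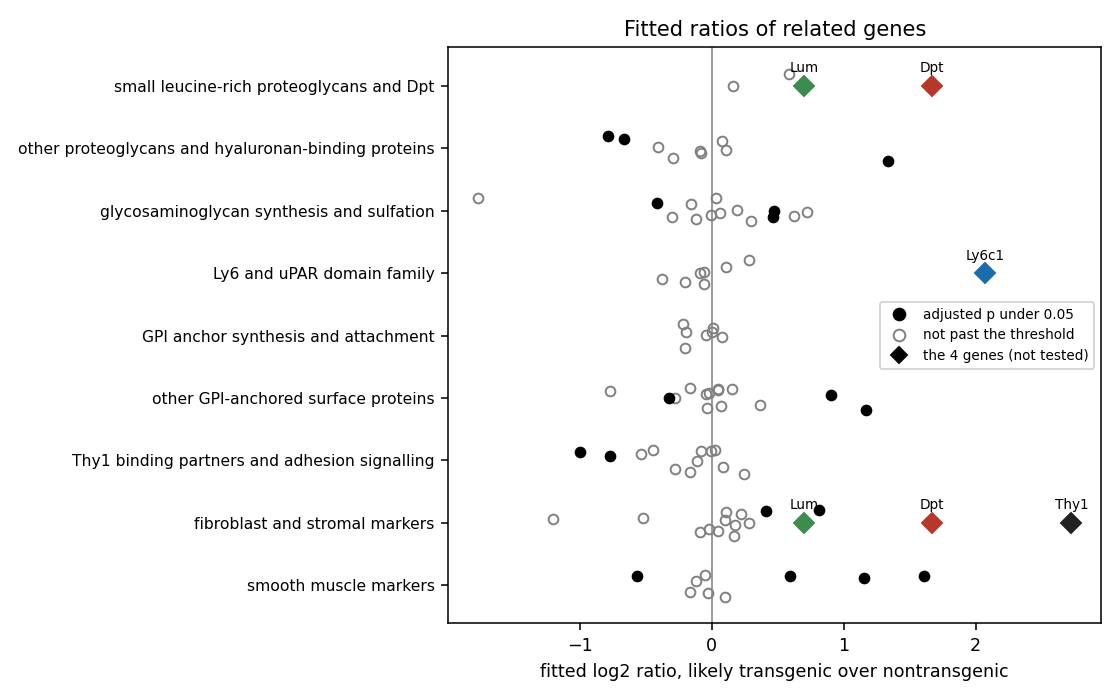
Fitted log2 ratios (x axis) of measured genes in 9 lists (y axis), filled where the adjusted p was under 0.05, with the 4 genes as diamonds. The other measured genes of the Ly6 and uPAR list lie between -0.38 and 0.28 and the anchor enzymes between -0.22 and 0.07. Ly6c1 stands at 2.07, and the Ly6 cluster pseudogene 9030619P08Rik, at 2.17, is not plotted.

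Other fibroblast and stromal markers mostly did not share the ratios of Thy1 and Dpt. Of 13 measured besides the members, 2 rose and 0 fell, and the median was 0.110. A positive ratio was found for 9 of the 13, among them Dpep1, Htra3, Ddr2 and Prrx1 at 0.10 to 0.22, which did not pass. Mfap5, a microfibril protein, rose by 0.81 ± 0.07 (limma, adjusted p = 0.0045), and Islr, a secreted leucine-rich repeat protein of stromal cells, rose by 0.41 ± 0.06 (adjusted p = 0.0202), a call that, of the fits with 1 array left out, only that without 2C kept, and that was lost with the sets as random blocks. Pdgfra, the receptor that marks most fibroblasts, was at -0.02 ± 0.14 as the mean of 4 probes from -0.40 to 0.19, Cd34 at 0.05 ± 0.11, Tcf21 at -0.09 ± 0.10 and Twist1 at 0.17 ± 0.16. Col1a1, the main fibroblast collagen, was at -1.21 ± 0.31 (adjusted p = 0.0752), from -3.28 on 1C to 0.24 on 2A. Eng was at -0.52 ± 0.23 and Fstl1, positive on 6 of 6 arrays, at 0.28 ± 0.08, neither past the threshold. The median of the 13 markers was -0.09 to 0.05 on the arrays of set 1 and 0.19 to 0.21 on those of set 2, a difference that was not tested.

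Markers of the other cells known for Thy1 or Ly6c1 were checked in the same way, and their part in the result was not tested. Of 3 measured T and NK cell genes 0 passed limma, and the list median was 0.252 in the fit and ran from -0.11 on 2A to 0.74 on 1C. Gzmb, a granzyme, was at 0.91 ± 0.32, with 2.73 on 1C. Of 14 myeloid and other leukocyte genes 0 passed; the median was 0.033, with -0.14 to 0.08 on single arrays, Ptprc, the common leukocyte antigen, was at 0.06 ± 0.15, and Tyrobp was highest at 0.50 ± 0.15. Of 11 endothelial genes 0 passed, with a median of -0.071, from -0.26 to 0.34 on single arrays, and Cdh5, the endothelial cadherin, was at -0.84 ± 0.24. That mean comes mainly from 1 of 3 Cdh5 probes, which were at -0.20, -2.44 and 0.13. Emcn was at -0.68 ± 0.16 (limma, adjusted p = 0.0609) and negative on all 6 arrays, from -1.23 to -0.27. Of the 11 endothelial genes 4 had a positive ratio. Among these, Esam was at 0.42 ± 0.12 (limma, adjusted p = 0.0888) and positive on 5 of 6 arrays. Plvap was at 0.62 ± 0.41, with 3.59 on 1C but negative values on 4 arrays. Ratios do not show whether a marker was near 0 in both RNAs.

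Of 10 neural and Schwann cell genes, 0 rose and 3 fell, with a median of -0.223: Map2 (-1.42 ± 0.21), Uchl1 (-0.46 ± 0.09) and L1cam (-0.45 ± 0.07), each of which lost the call without 1B, 2B or 1C and with the sets as random blocks. The L1cam probes disagreed in size, at -0.20 ± 0.09 and -0.70 ± 0.14. Of 7 epithelial genes Cdh1 rose (0.32 ± 0.06), of 6 cartilage genes Col11a1 fell (-1.10 ± 0.09), and of 4 adipocyte genes 0 passed limma, with Pparg at 0.91 ± 0.25. The epithelial median was 0.063, the cartilage median -0.201 and the adipocyte median 0.094. With 1 array left out, the Cdh1 call was kept only without 2C, and it was lost with the sets as random blocks. Of 9 smooth muscle genes, Fhl1 (1.60 ± 0.08), Vcl (1.15 ± 0.14) and Cnn1 (0.59 ± 0.11) rose and Mcam (-0.57 ± 0.08) fell, with a median of -0.032. The Vcl call was lost without 1C, that of Mcam without 2B, and that of Cnn1 without each array but 2C and with the sets as random blocks. The defining contractile genes Acta2, Myh11 and Tagln were not analysed here, so the smooth muscle label rests on the staining that the labels give.

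Likeness to the 4 genes was measured as the mean absolute difference in log2 ratio over the 6 arrays among 5614 genes. It describes values that share arrays and a contrast, and says nothing of function. The genes nearest to Thy1 were Cpxm1 (0.566), Ly6c1 (0.651), C1ra (0.739), 9030619P08Rik (0.782) and Pamr1 (0.858). The genes nearest to Ly6c1 were Cpxm1 (0.276), C1ra (0.338), Pamr1 (0.417), Cst3 (0.417) and Dkk3 (0.439). Cpxm1 encodes a carboxypeptidase-like protein, C1ra a complement protease, Cst3 the protease inhibitor cystatin C and Dkk3 a secreted glycoprotein of the dickkopf family. Cpxm1 ran from 1.66 on 2C to 3.41 on 1A, so that, as for Ly6c1, 1A was its highest and 2C its lowest array.

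The gene nearest to Dpt over 6 arrays was Aldh1a7, an aldehyde dehydrogenase, at 0.596, followed by 4933427D14Rik at 0.795 and the tenascin gene Tnc at 0.861. Aldh1a7 was also lowest on 1B, at 0.38 against 1.31 to 2.46 on the other 5 arrays, but it was not negative there. Without 1B, an alternative added after seeing the data, the gene nearest to Dpt was Ly6c1 at 0.342, followed by Rasl11a at 0.418. The genes nearest to Lum lay at 0.236 to 0.251 and were Cacng1, Ephx2, Cxcl12, Baiap2l1 and Il12b. With the Euclidean distance, 4 of the 5 nearest genes were shared for Thy1, 4 for Ly6c1, 3 for Dpt and 1 for Lum, so the list for Lum depends on the measure.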

How the data were processed

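The authors deposited log2 ratios per probe for 6 two-colour arrays of cultured mouse cells. Per the labels' protocols, reverse transcribed RNA was labelled with Cy3 or Cy5 and hybridised competitively to printed slides. Neither a scanner or normalization method nor the ratio's direction is stated in the labels, and other processing notes were not used here. The arrays were already centred, with medians from -0.0012 to 0.0007, and no signal intensities were used, so precision is limited by the number of arrays.

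Of 8734 probes, 7540 had 1 gene symbol, 14 several and 1180 none in the platform annotation; 7493 matched the GRCm38.p6 gene table by Entrez ID. Probes of 1 symbol were averaged. The 6807 rows with at least 4 values and both dye orientations were fitted with limma 3.58.1 (R 4.3.3; lmFit, eBayes) with a transgenic and a dye term, and a further term for set 2 minus set 1. Calls are Benjamini-Hochberg adjusted p under 0.05 over all rows. The fit was tested on simulated data. A check of the overexpressed gene is not reported here. Python 3.11.15, pandas 2.3.3 and matplotlib 3.10.9 served for the rest. No pairing by set was assumed in the main fit; a fit with the set as a replicate block was an alternative. Alternatives left out arrays, changed the dye term, the floor value (-6.6439, a ratio of 0.01), the scaling, the probe summary, the filter and the variance model. The genes and lists were chosen with earlier results of these data known. Genes named are the 4 members, up to 8 list genes past the threshold per list, measured genes next in size, the 5 genes nearest to each member, and, chosen after their values were seen, chromosomal neighbours and some further markers and list genes.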

Additional observations from a re-analysis of the deposited data

Results flagged for a closer look

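Among the 4 arrays with transgenic RNA in Cy5, 3 of 26 genes examined had 1 array far from the others, judged by the gap to the nearest value over the whole range against Dixon's 95% critical value; chance gives about 1 in 20, and 6.63% of rows with 6 values met it. Dpt on 1B was at -1.01 against 1.83 to 2.09 on the other 3 arrays (gap over range 0.916). Lum on 2A was at 1.33 against 0.29 to 0.43 (0.862). Hs6st2 on 1A was at 0.79 against 0.50 to 0.53 (0.904).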

How the results depend on the processing

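The fitted ratios of the 4 genes stayed positive under 19 of the 20 alternatives, between 2.42 and 3.03 for Thy1, 1.91 and 2.30 for Ly6c1, 1.21 and 2.04 for Dpt and 0.58 and 0.78 for Lum. Many of the 19 could not move these ratios, so the count is no measure of stability. Each gene had 1 probe with a value on every array and none at the floor. Its ratio was therefore unchanged by the floor, probe summary, filter and robust variance alternatives, and by both set blocks. With the sign of 1C and 2C turned, Thy1 came to -0.10, Ly6c1 to 0.23, Dpt to -0.46 and Lum to -0.11, and 1 row passed. Under the same turn Gpc4 came to 0.062, Chst11 to 0.060, Efna5 to 0.10, Itgb3 to 0.29, Pxn to 0.21, Mcam to 0.20, Map2 to 0.19 and Col11a1 to 0.27, and 0 of the 22 list genes passed. The number of rows called was 484, and 197 with a random replicate block for the sets (correlation 0.295), 1168 with a fixed replicate block, 159 with array weights and 1049 when 1C and 2C were both dropped. With 1 array left out it ran from 169 without 2A to 1689 without 2C, and the dye count from 1 to 987. With floor values missing, 0 rows passed for dye. After scaling to a common spread, 3 rows passed for the set difference, and that of Thy1 turned to 0.15. With 1 array left out, the set difference ran from -0.24 (without 1B) to 1.53 for Dpt and from -0.18 (without 2A) to 0.44 for Lum, and the dye term of Thy1 from -0.41 to 0.21. Of the 22 list genes called, 13 kept the call with the random block and 8 without 1C; 7 (Agrn, Cd109, Col11a1, Fhl1, Itgb3, Mfap5 and Tgfbr3) kept it under the other 18 alternatives run for list genes, that is, all but the turned sign. The 9 lost with the random block were Chst11, Hs6st2, Efna5, Islr, Cnn1, L1cam, Uchl1, Map2 and Cdh1. The fit of single probes was not counted among the alternatives for the list genes. In it all probes of Agrn and Tgfbr3 passed, but 1 probe each of Papss2 and L1cam did not (limma, adjusted p = 0.317 and 0.193). Of the genes not called, Cav1 and Pparg each had 1 probe that passed (adjusted p = 0.0174 and 0.0462) and 1 that did not. No cause of these changes was tested.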
